A study of Marchantia polymorpha with 9 samples.

Results

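Peroxidase and oxidative stress response genes were examined in thalli of the liverwort *Marchantia polymorpha*. The set holds 8 of the 19287 genes in the expression table. They were taken by annotation, as the genes marked as peroxidases or with a response to oxidative stress in the part of the study's gene annotation used here, which covers scaffolds 1 to 5 and part of scaffold 6. The set is therefore not the whole peroxidase family of the genome. RNA was compared among 3 groups, each with 3 replicates by the sample labels. Tak-1 is the wild-type male strain. MpBHLH12ox#2 and MpBHLH12ox#3, labelled MpGL3ox#2 and MpGL3ox#3 at deposit, are independent lines of the Tak-1 ecotype that express Citrine fused to MpBHLH12, from the constitutive 35S promoter. MpBHLH12 belongs to the IIIf clade of basic helix-loop-helix proteins, which regulate transcription. All groups were untreated, 3 weeks old and grown on agar under continuous light, and 9 pieces of thallus were collected. Both lines went through transformation and Tak-1 did not, so an effect of MpBHLH12 and an effect of transformation cannot be told apart.

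Class III peroxidases are haem enzymes of plants that are mostly secreted to the cell wall or vacuole. They use hydrogen peroxide to oxidise phenolic compounds, and can also form or remove reactive oxygen species. In vascular plants they take part in the polymerisation of lignin and the stiffening of cell walls. OsmC-like proteins, known from bacteria, are thiol-dependent enzymes that reduce organic hydroperoxides. Of the 8 genes, 7 carry the haem peroxidase domain and 1, Mapoly0002s0116, encodes an OsmC-like protein. Of the 7 peroxidases, 6 are assigned to the family PTHR31235, and Mapoly0004s0139 is the 1 member of PTHR31388. Mapoly0002s0115 carries the peroxidase domain without the assignment to the EC peroxidase orthologue that the other 6 have. Mapoly0004s0091, Mapoly0004s0092, Mapoly0004s0093 and Mapoly0004s0094 have consecutive numbers on scaffold 4, an arrangement of a tandem array.

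The values are FPKM (fragments normalised for the length of the gene and the size of the library), which the authors averaged over the replicates of each group. The table holds 1 average per group, so there is no error over replicates, no test, and every difference below describes these averages only. Change was expressed as log2(FPKM + 1) of a line minus that of Tak-1, a scale that compresses the change of genes with low FPKM. Both lines were compared with the same Tak-1 average. In place of a test, a gene was counted where both lines differed from Tak-1 by 1 or more, with the same sign. In a sample of thallus pieces, fewer cells of a type and less RNA per cell cannot be told apart. The paper reported smaller and fewer gemma cups in the lines than in Tak-1, and the part of this difference in the values was not tested. The transgene checked the labels, since MpBHLH12 (Mapoly0031s0161) had 20.3 FPKM in Tak-1 and 547.6 and 474.6 FPKM in MpBHLH12ox#2 and MpBHLH12ox#3. All 5 chlorophyll-binding and photosystem II genes used as markers of green thallus had at least 29.1 FPKM in every group. These markers were mostly lower in both lines, with a median of -0.33 for the mean log2(FPKM + 1) change, but not all moved in that direction. Of the genes for the photosystem II protein PsbR, Mapoly0006s0055 was lower in the lines, with 2830 FPKM in Tak-1 and 1885 and 1734 FPKM in MpBHLH12ox#2 and MpBHLH12ox#3, and Mapoly0001s0109 was higher, with 39.6, 46.4 and 51.1 FPKM. The log2(FPKM + 1) change of the chlorophyll a/b binding protein gene Mapoly0001s0025 was -0.37 and -0.29. Of the PsbP genes, Mapoly0002s0119 changed by -0.38 and -0.31 and Mapoly0002s0218 by -0.01 and -0.11. Their part in the results on the peroxidases was not tested.

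The 8 genes fell into separate levels of expression, a split set beforehand, since the array was chosen as hardly expressed in thalli. The 4 genes of the array stayed at or under 0.111 FPKM in every group, and the other 4 were at or above 1.31 FPKM in every group. In Tak-1 the lowest of the expressed genes stood 17.1 times above the highest gene of the array. This ratio was 11.9 in MpBHLH12ox#2 and 17.2 in MpBHLH12ox#3. The median of the array was 0.0172 FPKM in Tak-1 and 0.0659 and 0.0288 FPKM in MpBHLH12ox#2 and MpBHLH12ox#3, against medians of 2.69, 3.04 and 3.22 FPKM for the expressed members in the same order. Low expression was common in the table, in which 30.9% of all genes were under 1 FPKM in all 3 groups. The array lay well below that limit. Its genes stood above 10.7% to 19.7% of all genes in Tak-1. In MpBHLH12ox#2 the range was 16.7% to 20.5%, and in MpBHLH12ox#3 10.8% to 19.1%.

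**Figure D1:**
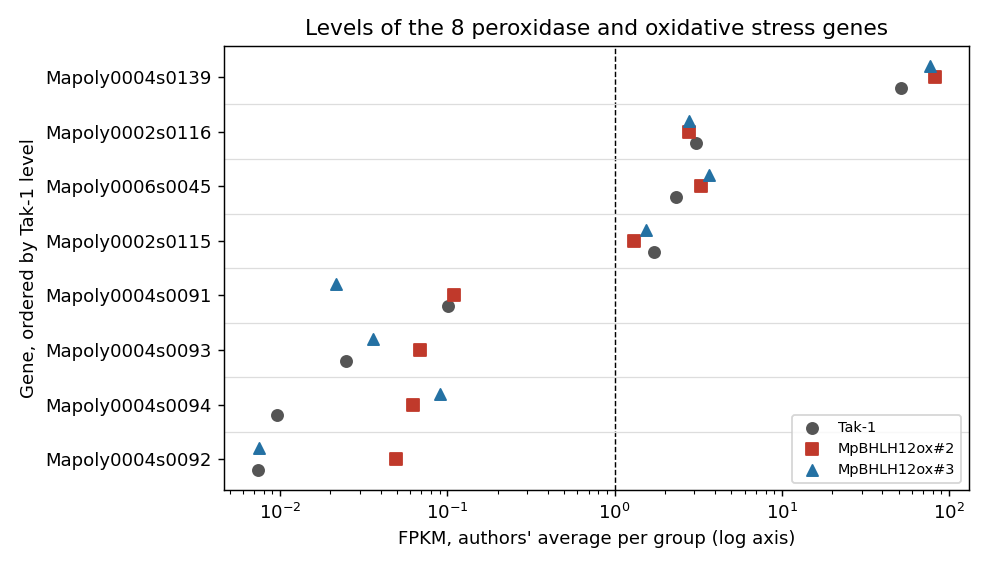
FPKM of each of the 8 genes on a log axis, with 1 point per group (circle Tak-1, square MpBHLH12ox#2, triangle MpBHLH12ox#3), each point being the authors' average. The dashed line marks 1 FPKM, with the 4 genes of the array to its left in all groups and the other 4 genes to its right.

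Most of the transcript of the set, summed in FPKM over the peroxidases and the OsmC-like gene, came from a single gene. Mapoly0004s0139 gave 87.6% of the summed FPKM of the 8 genes in Tak-1, and 91.4% and 90.5% in MpBHLH12ox#2 and MpBHLH12ox#3. The 4 genes of the array together gave 0.243%, 0.325% and 0.182% of the sum in the same order. The sum itself was 58.7 FPKM in Tak-1 and 89.7 and 85.5 FPKM in MpBHLH12ox#2 and MpBHLH12ox#3. Without Mapoly0004s0139 the sum of the remaining 7 genes was 7.26, 7.69 and 8.14 FPKM, so the difference in the sum lay mainly in this gene.

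Mapoly0004s0139 was the most highly expressed of the 8 genes in every group. It had 51.5 FPKM in Tak-1 and 82.0 and 77.4 FPKM in MpBHLH12ox#2 and MpBHLH12ox#3. Both lines were above Tak-1, by 59.3% and 50.3%, and the lines differed from each other less than either differed from Tak-1. On the log2 scale the change was 0.66 in MpBHLH12ox#2 and 0.58 in MpBHLH12ox#3, while MpBHLH12ox#3 lay 0.08 below MpBHLH12ox#2. In Tak-1 the gene stood above 89.9% of all genes in FPKM, and in the lines above 94.2% and 93.7%. It was 16.8 times as high in FPKM as the next member in Tak-1, Mapoly0002s0116. The next member was Mapoly0006s0045 in both lines, with ratios of 24.9 in MpBHLH12ox#2 and 21.1 in MpBHLH12ox#3.

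Mapoly0006s0045, a peroxidase of the family PTHR31235, was the other expressed gene that was higher in both lines. It had 2.33 FPKM in Tak-1 and 3.29 and 3.66 FPKM in MpBHLH12ox#2 and MpBHLH12ox#3. The change of log2(FPKM + 1) was 0.37 in MpBHLH12ox#2 and 0.49 in MpBHLH12ox#3. In FPKM the lines were 41.7% and 57.4% above Tak-1, next to 59.3% and 50.3% for Mapoly0004s0139, although the gene was expressed at a much lower level. With a pseudocount of 0.1 in place of 1 its log2 change was 0.48 and 0.63.

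The consecutive genes Mapoly0002s0115 and Mapoly0002s0116 were slightly lower in both lines. Mapoly0002s0115, the haem peroxidase domain gene, had 1.73 FPKM in Tak-1 and 1.31 and 1.55 FPKM in MpBHLH12ox#2 and MpBHLH12ox#3, log2 changes of -0.24 and -0.10. Mapoly0002s0116, the OsmC-like gene, had 3.06 FPKM in Tak-1 and 2.79 and 2.77 FPKM in MpBHLH12ox#2 and MpBHLH12ox#3, log2 changes of -0.10 and -0.11. For Mapoly0002s0116 the lines lay within 0.01 of each other on the log2 scale, and for Mapoly0002s0115 they lay 0.14 apart. The order of the expressed members was therefore not the same in all groups. In Tak-1 it was Mapoly0004s0139, Mapoly0002s0116, Mapoly0006s0045 and Mapoly0002s0115, and in both lines Mapoly0006s0045 came before Mapoly0002s0116. Without replicate values it is not known which of these neighbours in order differ beyond their spread.

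The genes of the array did not move together. Mapoly0004s0091 had 0.101 FPKM in Tak-1 and 0.111 and 0.0217 FPKM in MpBHLH12ox#2 and MpBHLH12ox#3, and was the 1 gene of the array that was lower in a line than in Tak-1. Mapoly0004s0092 had 0.0074 FPKM in Tak-1 and 0.0497 and 0.0075 FPKM in MpBHLH12ox#2 and MpBHLH12ox#3. It was thus at nearly the same level in Tak-1 and MpBHLH12ox#3. Mapoly0004s0093 had 0.0248 FPKM in Tak-1 and 0.0690 and 0.0359 FPKM in MpBHLH12ox#2 and MpBHLH12ox#3. Mapoly0004s0094 had 0.0096 FPKM in Tak-1 and 0.0628 and 0.0902 FPKM in MpBHLH12ox#2 and MpBHLH12ox#3, and was the gene of the array with the highest value in MpBHLH12ox#3, whereas Mapoly0004s0091 had the highest in Tak-1 and MpBHLH12ox#2. Each of the 4 genes had a value above 0 in every group. This does not set the array apart, since most genes of the table had values above 0. Per group, between 1978 and 2033 of the 19287 genes had a value of 0, and 1348 genes had it in all groups.

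The ratios of these low values were large while the differences in FPKM were small. Mapoly0004s0094 stood at 6.56 times its Tak-1 level in MpBHLH12ox#2 and 9.42 times in MpBHLH12ox#3, and Mapoly0004s0092 at 6.71 times in MpBHLH12ox#2 and 1.01 times in MpBHLH12ox#3. On the log2(FPKM + 1) scale the changes of the 4 genes lay between -0.11 and 0.11 in both lines. With a pseudocount of 0.1 the change of Mapoly0004s0094 was 0.57 in MpBHLH12ox#2 and 0.80 in MpBHLH12ox#3, and that of Mapoly0004s0091 was 0.07 and -0.72. By this pseudocount Mapoly0004s0094 was past 0.5 in both lines, as 7.69% of all genes were in the upward direction. The number of fragments behind these values is unknown. Consecutive genes of a family can also be near-identical in sequence, and fragments that match several copies would make the values of single copies uncertain.

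By the rule of size, 0 of the 8 genes passed, where 2.13% of all genes did so (1.08% higher and 1.05% lower). The 4 genes of the array, at or under 0.111 FPKM in every group, could not reach a change of 0.5 on this scale. The count therefore rests on the 4 expressed genes. At a change of 2, which 0.389% of all genes passed in both lines, the count was again 0. At a change of 0.5 the 1 gene counted was Mapoly0004s0139, higher in both lines, where 4.33% of all genes were higher and 3.69% lower by that rule. Of the 13324 genes that reached 1 FPKM in some group, to which 4 of the 8 belong, the share that was higher by 0.5 was 6.16%. The median of the mean change over both lines was 0.03 for the 8 genes and 0.16 for the 4 expressed ones. The corresponding medians were 0 over all genes and 0.01 over the 13324 genes.

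**Figure D2:**
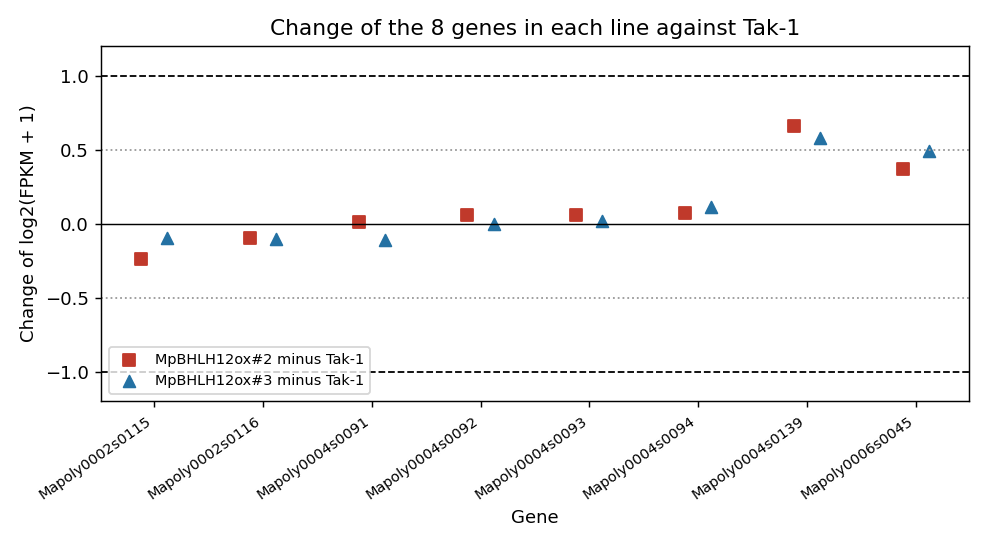
Change of log2(FPKM + 1) of each of the 8 genes in MpBHLH12ox#2 (squares) and MpBHLH12ox#3 (triangles) against the same Tak-1 average. Dotted lines mark 0.5 and dashed lines 1 in either direction. Mapoly0004s0139 is the 1 gene past 0.5 in both lines, and the genes of the array stay between -0.11 and 0.11.

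The array was chosen as hardly expressed in thalli, so its low level beside the genes numbered next to it is part of that choice. Of the 5 genes on each side of it, 10 of 10 had 1 FPKM or more in at least 1 group. Mapoly0004s0099 reached this only in the lines. The stretch of consecutive genes under 1 FPKM in all groups began at Mapoly0004s0091 and ended at Mapoly0004s0094, and its limits were the same at 0.5 FPKM. Such stretches were not rare. The table held 199 runs of 4 or more consecutive genes under 1 FPKM in all groups, 3 of them on scaffold 4. On this scaffold 25.1% of the 311 genes were under 1 FPKM in all groups. Next to the array, Mapoly0004s0090, annotated as a subunit of RNA polymerase I, had 6.06 FPKM in Tak-1 and 6.76 and 6.47 FPKM in MpBHLH12ox#2 and MpBHLH12ox#3. On the other side, Mapoly0004s0095, annotated as an amino acid transporter, had 1.34 FPKM in Tak-1 and 2.54 and 2.13 FPKM in MpBHLH12ox#2 and MpBHLH12ox#3. Further on, Mapoly0004s0097, annotated as a probable lipid transfer protein, was the 1 of these 10 genes past a change of 1 in both lines. It had 1.32 FPKM in Tak-1 and 4.22 and 5.28 FPKM in MpBHLH12ox#2 and MpBHLH12ox#3, log2 changes of 1.17 and 1.44. At a change of 0.5, 2 of the 10 genes were higher in both lines and 0 were lower, the other one being Mapoly0004s0099 with 0.375, 1.46 and 2.07 FPKM. Over all genes 4.33% were higher by that rule, and counts over 10 genes are too few to set a stretch apart from this share.

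Around Mapoly0004s0139, 0 of the 10 neighbouring genes reached a change of 0.5 in both lines, where 8.02% of all genes did so in either direction, so that a count of 0 is near the background. Mapoly0004s0138, which has no annotation, had 0.120 FPKM in Tak-1 and 0.0808 and 0.0535 FPKM in MpBHLH12ox#2 and MpBHLH12ox#3. Mapoly0004s0140, a subunit of the ESCRT machinery that sorts proteins to the vacuole, had 67.1 FPKM in Tak-1 and 64.3 and 66.6 FPKM in MpBHLH12ox#2 and MpBHLH12ox#3. Around Mapoly0006s0045 the count was also 0 of 10, and around each gene of the pair on scaffold 2 it was 1 of 10, against the same share. The mRNA cap methyltransferase gene Mapoly0006s0044 changed by -0.0026 in MpBHLH12ox#2 and -0.05 in MpBHLH12ox#3 on the log2 scale, and the glycosyltransferase gene Mapoly0006s0046 had 20.4 FPKM in Tak-1 and 22.4 and 19.5 FPKM in the lines. Beside the pair on scaffold 2, the sugar transporter gene Mapoly0002s0114 had 2.63 FPKM in Tak-1 and 3.61 and 2.55 FPKM in MpBHLH12ox#2 and MpBHLH12ox#3. The gene past 0.5 was the next one, Mapoly0002s0113, with 1.78 FPKM in Tak-1 and 4.47 and 4.37 FPKM in MpBHLH12ox#2 and MpBHLH12ox#3, log2 changes of 0.98 and 0.95. The translation initiation factor IF-2 gene Mapoly0002s0117, on the other side of the pair, had 46.1, 42.6 and 42.3 FPKM.

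**Figure D3:**
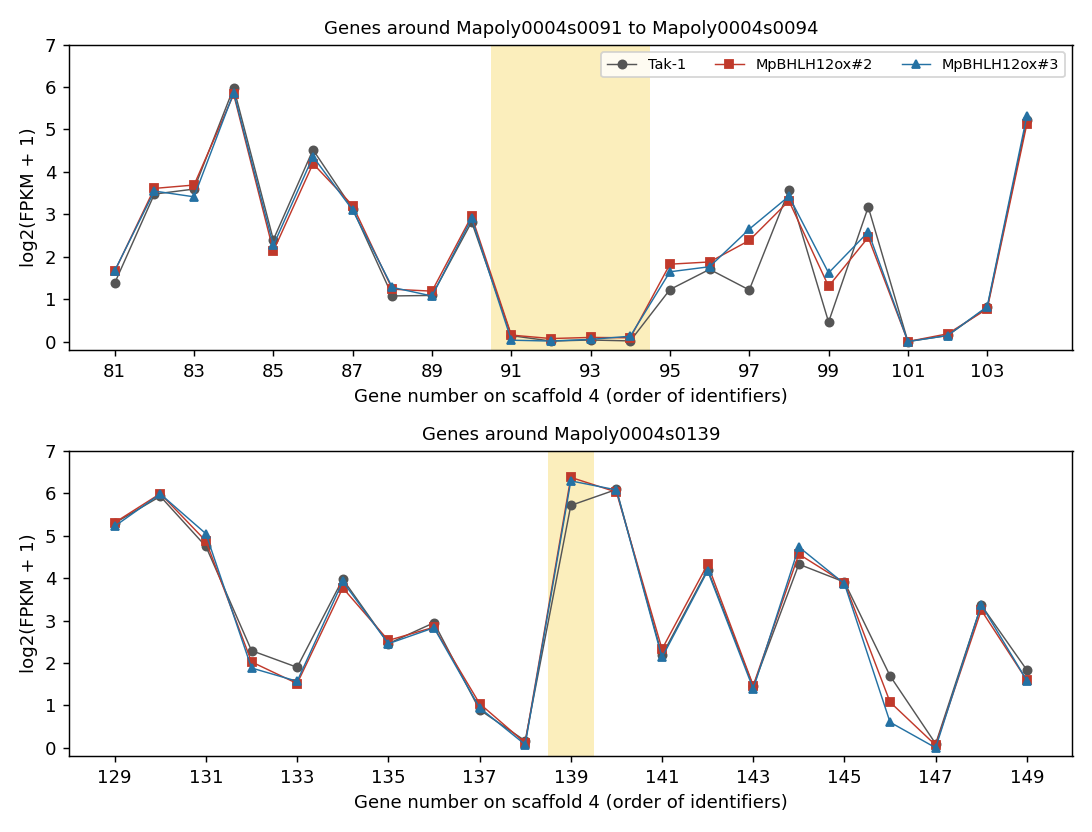
Level as log2(FPKM + 1) of genes in the order of their numbers on scaffold 4, around the array (top) and around Mapoly0004s0139 (bottom), with 1 line per group and the members shaded. The array forms a gap near 0, and Mapoly0004s0101 to Mapoly0004s0103 in the same window were also under 1 FPKM in all groups. Mapoly0004s0139 is the gene of its window at which both lines stand above Tak-1 by more than 0.5.

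The genes whose 3 averages lay nearest to those of Mapoly0004s0139, by Euclidean distance of log2(FPKM + 1), were Mapoly0128s0005, Mapoly0071s0040 and Mapoly0058s0114. The distance was 0.13 for both of the first genes and 0.18 for Mapoly0058s0114, over 3 averages. Mapoly0128s0005 had 47.4 FPKM in Tak-1 and 82.3 and 74.8 FPKM in MpBHLH12ox#2 and MpBHLH12ox#3. Mapoly0071s0040 had 52.7, 80.6 and 84.2 FPKM in the same order.

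Other genes of reactive oxygen and thiol metabolism were read from the same annotation, and were chosen with earlier results of these data known. They comprise 17 genes, from the NADPH oxidase that makes superoxide and the superoxide dismutase that turns it into hydrogen peroxide to the glutathione, glutaredoxin and thioredoxin systems. All 17 were expressed at 1.12 FPKM or more in every group. In Tak-1, 12921 of all 19287 genes were at 1 FPKM or more. The 4 peroxidases of the array were chosen as hardly expressed, so their lower level is part of that choice. By the rule of size, 0 of 17 changed by 1 and 0 by 0.5 in both lines, beside 8.02% of all genes for 0.5 in either direction, and their median change was 0.01. The largest mean increase was that of the respiratory burst NADPH oxidase gene Mapoly0002s0287, with 2.43 FPKM in Tak-1 and 4.02 and 3.47 FPKM in MpBHLH12ox#2 and MpBHLH12ox#3. Its log2 change was 0.55 and 0.38, so it passed 0.5 in 1 line. The largest mean decrease was that of the glutaredoxin-related gene Mapoly0001s0103, with 83.7 FPKM in Tak-1 and 59.8 and 61.1 FPKM in MpBHLH12ox#2 and MpBHLH12ox#3, log2 changes of -0.48 and -0.45. On the log2(FPKM + 1) scale Mapoly0004s0139, at 0.62 on average, changed more than any of these 17 genes. This scale shrinks the change of Mapoly0002s0287 more, as its FPKM was lower. In FPKM the lines were 65.5% and 42.7% above Tak-1 for Mapoly0002s0287, beside 59.3% and 50.3% for Mapoly0004s0139.

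The haem group of peroxidases is shared with other enzymes, chiefly the cytochromes P450, which insert oxygen into small molecules. Of 16 other heme binding genes of the same annotation, 13 encode cytochromes P450. By the rule of size 1 of the 16 was higher and 0 were lower, beside 1.08% and 1.05% of all genes. At 0.5 the numbers were 3 and 0, beside 4.33% and 3.69%. Mapoly0004s0182 had 0.705 FPKM in Tak-1 and 6.88 and 5.86 FPKM in MpBHLH12ox#2 and MpBHLH12ox#3, log2 changes of 2.21 and 2.01. Mapoly0003s0125 had 9.80 FPKM in Tak-1 and 17.6 and 16.9 FPKM in MpBHLH12ox#2 and MpBHLH12ox#3, log2 changes of 0.79 and 0.73. Mapoly0004s0227 had 20.8, 36.7 and 30.3 FPKM in the same order, log2 changes of 0.79 and 0.53. These 3 genes are cytochromes P450. The lowest mean change was that of the cytochrome P450 gene Mapoly0005s0139, with 1.83 FPKM in Tak-1 and 0.977 and 1.03 FPKM in MpBHLH12ox#2 and MpBHLH12ox#3. The median of the mean changes was 0.14 over the 16 genes and 0.48 over the 10 of them that reached 1 FPKM in some group. Of the 9 expressed cytochromes P450, 3 were higher by 0.5, and of the 3 expressed haem peroxidases, 1 was, where 6.16% of all genes that reached 1 FPKM were. Mapoly0004s0182 reached 1 FPKM only in the lines, so it entered the 10 and the 9 genes through the groups in which it was high. The filter thus used the same values as the change. The difference between the cytochromes P450 and the haem peroxidases was not tested.

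**Figure D4:**
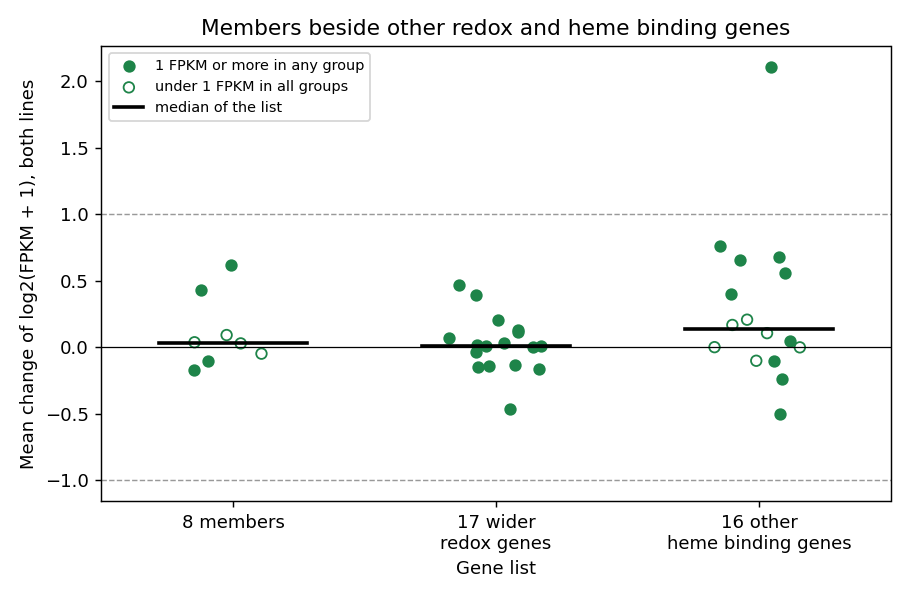
Mean change of log2(FPKM + 1) over both lines against Tak-1, with 1 point per gene, for the 8 peroxidase and oxidative stress genes, 17 other redox genes and 16 other heme binding genes. Filled points reached 1 FPKM in some group, open points did not, bars are medians (0.03, 0.01 and 0.14) and dashed lines mark a change of 1; horizontal scatter within a list carries no value. Mapoly0004s0182 is the 1 gene above 1.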

How the data were processed

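RNA-Seq libraries of 3-week-old thalli were sequenced for Tak-1, MpBHLH12ox#2 and MpBHLH12ox#3, with 3 replicates each by the labels. The authors aligned reads with Bowtie2 (JGI 3.1 genome) and counted fragments with HTSeq, and the submitters' processing notes also name Cuffdiff 2.2.1. The paper tested the lines against Tak-1 with edgeR. It reported genes of the response to oxidative stress as enriched among the up-regulated ones. Its tests over replicates were not repeated here. The counts here rest on a size of change between averages, an unlike rule, and on part of the annotation. They therefore neither repeat nor contradict that result. For 19287 genes, the authors deposited the FPKM averaged within each group. The sources used here name no annotation file or filter. Pooling hides the spread between replicates, and depth per library is unknown.

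Changes were differences of log2(FPKM + 1) between a line and Tak-1. A linear model was planned for replicate values; with 1 average per group a size rule was used, under which both lines had to differ from Tak-1 by 1 or more with the same sign. The members and lists were chosen with earlier results of these data known. Named genes were the members, list genes past 0.5 in both lines or with the highest or lowest mean change, the genes immediately beside each member, neighbours past 1 in both lines, and the 3 genes nearest to Mapoly0004s0139; the marker genes, Mapoly0004s0099, Mapoly0002s0113 and the order of members were described after their values were seen. Annotations came from the study's gene table. No gene identifier matched the reference table (0 matches), so positions and sequences were not analysed here. The qRT-PCR standard Mapoly0024s0116 had 3564 FPKM in Tak-1 and 4057 and 3956 FPKM in the lines. Alternatives were pseudocounts of 0.1 and 5, rescaling, a filter at 1 FPKM, sizes of 0.5 and 2, the mean of both lines, 0.5 FPKM as the level of expression, means in place of medians, and 10 neighbours on each side. Python 3.11.15, numpy 2.4.6, pandas 2.3.3 and matplotlib 3.10.9 were used.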

Additional observations from a re-analysis of the deposited data

How the results depend on the processing

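No paired analysis was possible because only group averages were analysed. Leaving out a replicate, a replicate block and a linear model were not run for the same reason. Of the 8 genes, 0 passed the size rule under pseudocounts of 0.1 and 5, rescaling, the 1 FPKM filter, a size of 2 and the mean of both lines, 1 passed at a size of 0.5, and 2, Mapoly0004s0139 and Mapoly0004s0094, at 0.5 with a pseudocount of 0.1, an alternative chosen after seeing the data. By that last rule 7.69% of all genes were higher. With pseudocounts of 1 and 5 the 4 genes of the array could not pass at any of these sizes, as their FPKM was too low. The other heme binding genes past the rule numbered 1, against 2 with a pseudocount of 0.1, 0 with 5 and 3 at a size of 0.5. A pseudocount of 0.1 moved the mean change of 6 of the 8 genes by more than the gap between the lines, and 5 moved 3. A small pseudocount enlarges and a large one shrinks changes of low values by construction. Mapoly0004s0139 stayed between 0.58 and 0.63 in mean log2 change under all of these pseudocounts, the rescaling and the filter. This was largely fixed in advance. The filter only drops other genes, and these pseudocounts are small beside the FPKM of this gene. The split of 4 expressed and 4 low genes was the same at 0.5 FPKM, but it was set by the choice of the array as hardly expressed. With means in place of medians the expressed genes exceeded the array by 14.6 FPKM in Tak-1 (2.68 by medians), since Mapoly0004s0139 dominates the mean. With 10 neighbours on each side, 17 of 20 genes around the array were expressed in at least 1 group.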
